A study of Mus musculus with 16 samples.

Results

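Pttg1, the mouse gene for securin, was described across the kidneys of 5 littermate mice. It was represented by a single probe, 1 of 20205 on the array and 1 of 8005 named genes that could be tested, and that probe gave a value on all 16 arrays. The gene was chosen by its log2 ratios on these same arrays, which earlier results had shown to differ widely between kidneys. Its own values are therefore given as a description and carry no test of differences between kidneys. The study measured normal variation of transcript levels between individual mice with two-colour cDNA microarrays. Mice W1, W2, W3, W4 and W5 were wild-type males on a mixed C57BL/6 and 129Sv background, killed in the morning at an age of 88 ± 2 days, and the right kidney of each was used. Every array set W5 against another of the mice, and W1 to W4 had 4 arrays apiece, with the mouse in channel 1 on 2 of them and in channel 2 on the other 2. The labels name no treatment and no engineered allele, and each group is a single animal. The 4 arrays of a mouse repeat the same pair of RNA sources, so errors and tests here speak of these RNA samples and say nothing on mice in general.

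Securin binds separase and keeps it inactive until all chromosomes are attached to the spindle. The anaphase-promoting complex, activated by Cdc20, then marks securin for destruction, and freed separase cuts the cohesin rings that hold sister chromatids together. Securin is known as a product of dividing cells and was first described as the pituitary tumor-transforming gene, while most tubule cells of the healthy adult kidney are not dividing.

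Each value is a log2 ratio of a mouse against W5, with the sign turned on arrays that held W5 in channel 1. Which channel is the numerator is not given in the sources used here, so it is not settled whether Pttg1 was higher or lower than in W5. Values are therefore given relative to Pttg1: a positive value lies on the side of W5 on which Pttg1 lay in W1, called the Pttg1 side, and a negative value lies on the opposite side. A ratio within an array also carries no level, and in whole kidneys fewer cells of a type and less RNA per cell cannot be told apart.

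All 16 arrays put Pttg1 on the same side of W5, and W1 lay far beyond the other littermates. In W1 the 4 arrays gave 2.23, 2.43, 2.78 and 2.27. The W2 arrays gave 0.78, 0.97, 1.13 and 0.72, and the W3 arrays 0.80, 0.70, 0.90 and 0.47. The W4 arrays gave 1.05, 0.70, 0.80 and 0.26. The lowest array of W1 thus lay above the highest array of any other mouse, whereas the arrays of W2, W3 and W4 overlapped one another. As deposited, before any sign was turned, the Pttg1 ratio was negative on every array with the mouse in channel 1, for example -2.23 and -2.78 in W1, and positive on every array with the mouse in channel 2, at 2.43 and 2.27 in W1. The sign thus followed the channel in all 4 mice.

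**Figure D1:**
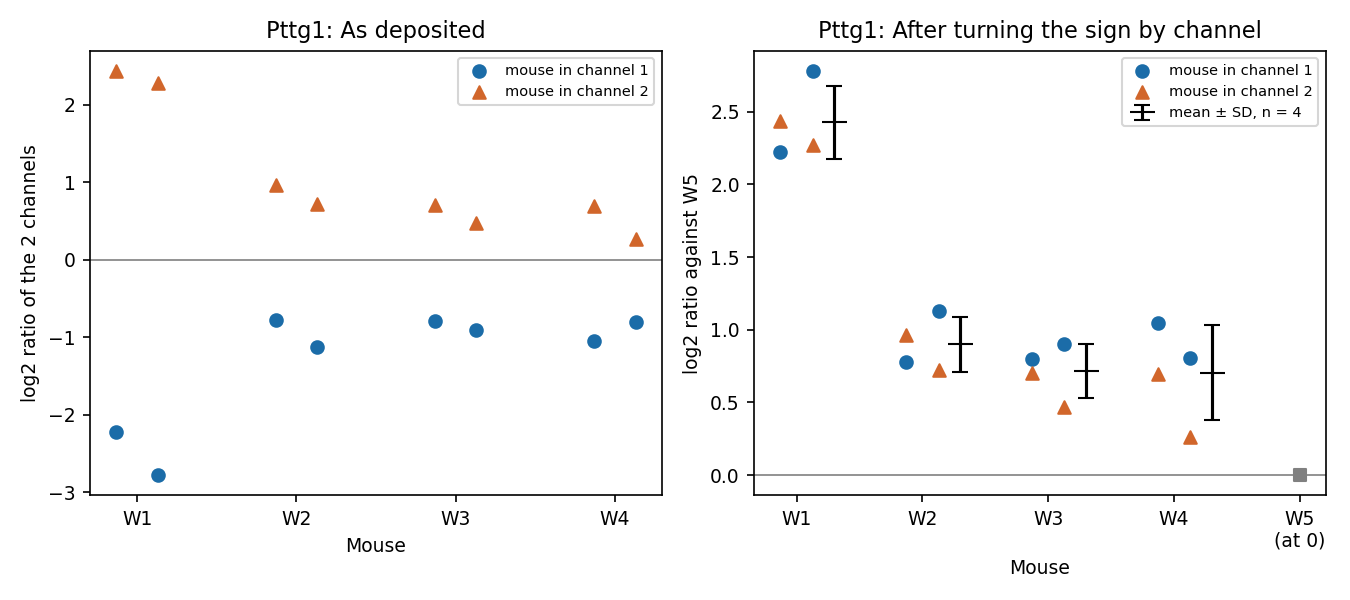
Log2 ratio of Pttg1 against W5 on each of the 16 arrays, by mouse, with W5 at 0 by construction. The left panel shows ratios as deposited and the right panel those after the sign was turned. Points are arrays, marked by the channel that held the mouse. Bars in the right panel give the mean ± SD over 4 arrays per mouse. The 4 arrays of W1 sit between 2.23 and 2.78, above all arrays of W2, W3 and W4, which sit between 0.26 and 1.13.

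The fitted difference from W5 was 2.43, 0.90, 0.72 and 0.70 in W1 to W4, each ± 0.10 (SE, n = 4 arrays). On a linear scale these are 5.38-fold, 1.87-fold, 1.65-fold and 1.63-fold. The SD over the 4 arrays was 0.25, 0.19, 0.18 and 0.33 in W1 to W4. The order of the kidneys along the Pttg1 side was therefore W1, then W2, W3 and W4 together, then W5. W1 was 1.53 beyond W2, 1.71 beyond W3 and 1.72 beyond W4, each ± 0.14 (SE), or 2.88-fold, 3.27-fold and 3.31-fold. W2 was 0.18 beyond W3 and 0.20 beyond W4, and W3 was 0.02 beyond W4, again each ± 0.14. The 95% intervals of these last differences reached from -0.12 to 0.48, from -0.11 to 0.50 and from -0.29 to 0.32. Each holds both signs, so an order among W2, W3 and W4 is not settled. The intervals describe the spread between arrays and do not show that these mice were alike.

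Channel orientation moved Pttg1 less than the mice differed from W5. With the mouse in channel 1 the mean size was 2.50, 0.96, 0.85 and 0.93 in W1 to W4, and with the mouse in channel 2 it was 2.35, 0.84, 0.59 and 0.48 in the same mice. The orientation with the mouse in channel 1 thus gave the larger size in each mouse, by 0.15, 0.11, 0.26 and 0.45. In the fit this gap was 0.24, which was larger than the fitted differences among W2, W3 and W4. The gene-specific dye term of the fit was 0.12 ± 0.05 (SE), which is larger than that of 76.7% of named genes. Of the sum of squares of the Pttg1 ratios around W5, mice took 97.7%, the dye term 0.745% and the residual 1.53%. The share of mice includes the distance from W5 that W1 to W4 had in common. The residual SD was 0.209, against a median of 0.183 over named genes, and 64.2% of them had a lower value.

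Among named genes the span of Pttg1 over the 5 kidneys, 2.43, was exceeded only by that of Serpina1e, which encodes an alpha-1-antitrypsin type protease inhibitor. Serpina1e ranged over 2.81, or 7.02-fold, with W5 at the end and the other 4 mice far from it, at -1.89, -2.81, -2.63 and -2.20 in W1 to W4. Next below Pttg1 came Serpina1b, of the same family, with a range of 2.15 and the same arrangement, and Ighg2c, an immunoglobulin heavy chain constant region, also with 2.15 and with W2 at the end. Members of the Serpina1 family are near-identical in sequence, and which of them each probe measures is uncertain. The median range of named genes was 0.23. For the distance of W1 from the mean of W2, W3 and W4, Pttg1 ranked first of 8005 named genes and of 15715 probes, at 1.65 ± 0.12 (SE) or 3.15-fold, against a median size of 0.0850. These ranks describe the values by which the gene was chosen.

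The measured partners of securin in its pathway were too few to be set apart from the share called of all named genes. Of 8 securin partners listed, 6 were tested and 0 were called in any of the 4 tests made with limma, in which a probe is called at an adjusted p under 0.05. The tests asked for differences among the 5 kidneys, where 4.2% of named genes were called, for differences among W1 to W4 (0.824%), for W1 against the mean of W2, W3 and W4 (0.225%), and for W1 against W5 (0.937%). With 6 genes tested, 0 calls is near these shares and is no result about the partners. At an unadjusted p under 0.05, 1 of the 6 partners, Pttg1ip, passed each of the 4 tests. Of all 8005 named genes 1460, 914, 602 and 638 did so in the same order of tests. The median range of the partners was 0.19.

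Separase itself, encoded by Espl1, lay at 0.14, 0.19, 0.20 and -0.06 in W1 to W4, a range of 0.27 (limma adjusted p = 0.366). Its arrays overlapped between mice, with 0.10, 0.36 and 0.01 on the 3 measured in W1 and 0.23, 0.22, 0.51 and -0.21 in W2. W3 gave 0.18, 0.17, 0.03 and 0.43, and W4 gave 0.02, 0.01, -0.19 and -0.09.

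Pttg1ip, which encodes a protein that binds securin, had the widest range of the partners, 0.41 (limma adjusted p = 0.227), with 0.21, -0.20, 0.04 and 0.13 in W1 to W4. Its W1 arrays read 0.48, 0.25, -0.09 and 0.18, against -0.12, -0.14, -0.46 and -0.09 in W2. The remaining mice lay between, at -0.05, 0.07, -0.13 and 0.27 on the arrays of W3 and 0.11, 0.16, 0.01 and 0.24 on those of W4.

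Cdc20, the activator that directs the anaphase-promoting complex to securin, was at 0.02, 0.19, 0.03 and 0.02 in W1 to W4 (limma adjusted p = 0.661). Fzr1, the activator that takes over after anaphase, was at 0.01, 0.12, 0.07 and 0.02 in W1 to W4 (limma adjusted p = 0.750), and its second probe was not called either. The cohesin subunit Rad21, the protein that separase cuts, had a range of 0.033 (limma adjusted p = 0.999), and Smc1a, an arm of the cohesin ring, had 0.20 (limma adjusted p = 0.759). Each of these ranges was below the 2.43 of Pttg1. Pttg1 was chosen for its spread, and 24 of the 8004 other named genes had a range above 1. The smaller ranges therefore do not mark out the partners.

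In 5 wider lists of cell division genes, pooled, the share called was close to that of all named genes. For cohesin and the separation of sister chromatids 17 of 24 listed genes were tested, for the anaphase-promoting complex 20 of 20, for the spindle checkpoint 4 of 18, for mitosis and the late cell cycle 22 of 40, and for DNA replication and entry into S phase 26 of 38. Without repeated genes, 88 of 139 were tested, and limma called 4 of them among the 5 kidneys, which is 4.55% beside 4.2% of all named genes. These were 1 of the 22 of mitosis and 3 of the 26 of DNA replication, with 0 in the other 3 lists. Among W1 to W4 and for W1 against the mean of the others it called 0, with 6 and 1 of the 88 at an unadjusted p under 0.05, beside 914 and 602 of all 8005 named genes. For W1 against W5 it called 1. The median range of the 88 was 0.23, the same as over all named genes, and W1 lay on the Pttg1 side of the mean of the others in 47 of them. Their distances of W1 from that mean ran from -0.35 to 0.38, against 1.65 for Pttg1.

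**Figure D2:**
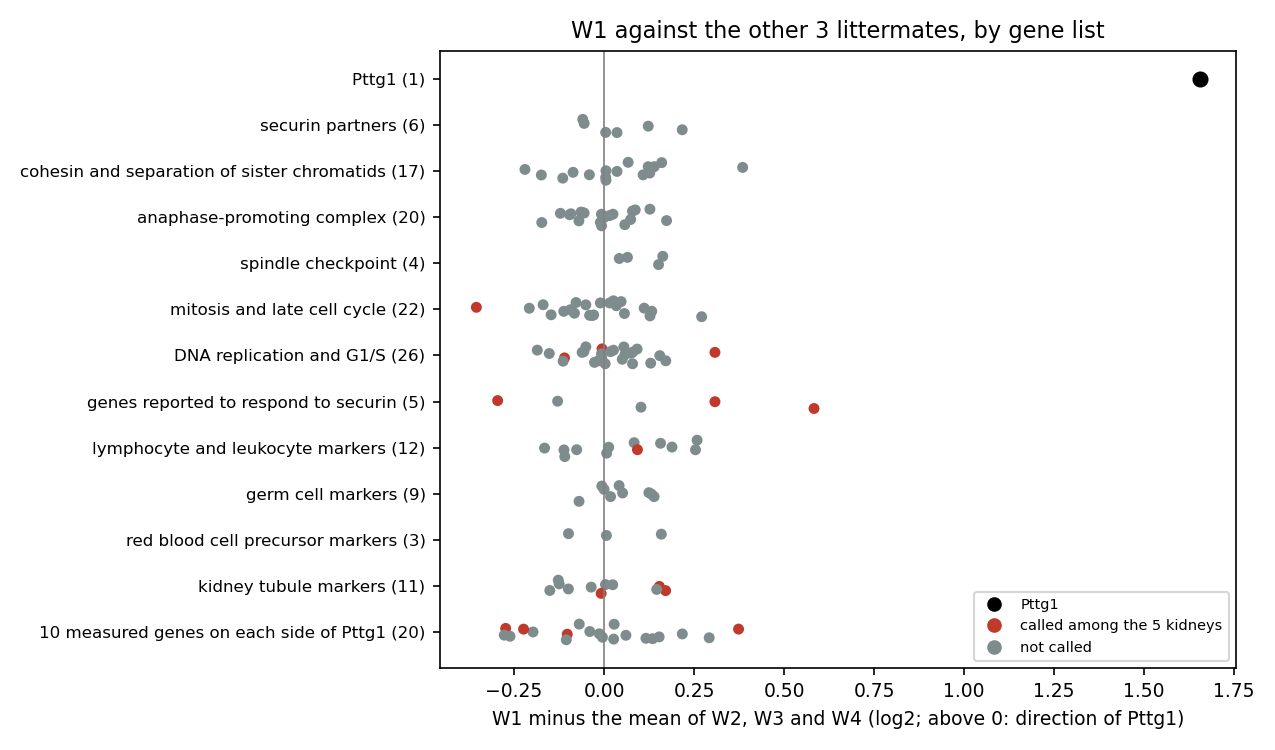
Distance of W1 from the mean of W2, W3 and W4, as log2 ratio on the Pttg1 side, for Pttg1 and the measured genes of each list. Each point is a gene and 0 marks no difference. Pttg1 stands at 1.65, while the 88 cell division genes lie between -0.35 and 0.38.

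Over the 22 tested genes of mitosis and the late cell cycle, values in W1 ran from -0.66 for Cdca8 to 0.09 for Plk1, a mitotic kinase. The next lowest was Ccna2, cyclin A2, at -0.12. Mki67, the classical proliferation antigen, lay at 0.08, -0.06, -0.32 and -0.19 in W1 to W4 (limma adjusted p = 0.608). Top2a, the topoisomerase that untangles chromosomes, lay at -0.06, -0.07, -0.06 and -0.10 in W1 to W4 (limma adjusted p = 0.917). Cdk1, the kinase that starts mitosis, lay at -0.02, 0.19, 0.04 and 0.04 (limma adjusted p = 0.608). Birc5, survivin of the chromosomal passenger complex, lay at 0.04, 0.19, 0.29 and 0.27, the nearest of these to a call (limma adjusted p = 0.0970). Plk1, Ccna2 and these 4 genes were picked from the list after their values were seen, and none was called.

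Of the called cell division genes, none had the Pttg1 arrangement of W1 far out with the other mice between it and W5. Cdca8, which encodes borealin of the chromosomal passenger complex, lay at -0.66, -0.64, -0.48 and 0.22 in W1 to W4, with W4 alone on the Pttg1 side of W5 (limma adjusted p = 0.0140). On single arrays Cdca8 gave -1.01, 0.09, -0.74 and -0.97 in W1, so array 2 of W1 lay on the other side of W5 from the remaining 3. Its W2 arrays read -0.51, -0.17 and -1.22, its W3 arrays -0.53, -0.38, -0.45 and -0.58, with -0.02, 0.27, 0.29 and 0.35 for W4. Mcm7, a subunit of the replicative helicase, was farthest from W5 in W2, at 0.45, beside 0.07 for W1, 0.17 for W3 and -0.08 for W4 (limma adjusted p = 0.0202), a call lost without array 1, 2 or 4 of W2. Ccnd1, which encodes cyclin D1 and acts at entry into S phase, was farthest in W4, at 0.45, beside 0.18 for W1, -0.08 for W2 and 0.18 for W3 (limma adjusted p = 0.0191), a call lost without the dye term or without array 1, 2 or 3 of W4.

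Cdkn1a, the p21 inhibitor of cyclin-dependent kinases, was the cell division gene called for W1 against W5 (limma adjusted p = 0.0123), and it was also called among the 5 kidneys (limma adjusted p = 0.0015). It lay at 0.53, 0.45, -0.04 and 0.26 in W1 to W4. Its 3 measured arrays in W1 gave 0.74, 0.70 and 0.26, against 0.66, 0.29, 0.55 and 0.32 in W2, so these mice overlapped. In W3 it gave -0.05, -0.09, 0.07 and -0.09, and in W4 0.52, 0.24, 0.01 and 0.28. Where W1 stood apart from W2 in Pttg1, it did not in Cdkn1a.

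In the 3 wider cell division lists with no call, the widest ranges were those of Ppp2r1a, the scaffold of protein phosphatase 2A, with 0.46 (limma adjusted p = 0.669), of Ube2s, a ubiquitin-conjugating enzyme of the anaphase-promoting complex, with 0.38 (limma adjusted p = 0.367), and of Mad2l1bp, which turns off the Mad2 checkpoint signal, with 0.24 (limma adjusted p = 0.824).

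A list of 10 genes that cell studies, many with human cells, link to securin levels had 5 tested members, and limma called 3 of them among the 5 kidneys, beside 4.2% of all named genes. Membership of this list comes from memory of that literature and was not checked here. The list was also chosen with earlier results of these data known, so its share called is no result about genes that respond to securin. Ccn2, a secreted growth regulator of connective tissue whose place in the list is uncertain, had a range of 0.82 (limma adjusted p = 1.22e-05). Its arrays gave 0.01, 0.05, 0.14 and 0.02 in W1 and -0.66, -0.72, -0.47 and -1.22 in W2. W3 gave 0.02, -0.15, -0.21 and -0.21, and W4 gave -0.69, -0.70, -0.67 and -0.66. W1 and W3 were thus near W5 in Ccn2, with W2 and W4 on the opposite side, which is not the order seen in Pttg1. Id3, an inhibitor of basic helix-loop-helix factors, was set apart by W3, at 0.38, beside -0.29 for W1, -0.17 for W2 and -0.20 for W4 (limma adjusted p = 0.0338), but 14 of 28 alternatives lost the call, among them each that left out a single array of W3. Cdkn1a, described above, was the remaining call.

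Markers of cells that divide or that could enter a kidney sample were examined next, since Pttg1 is made in dividing blood cells and in testis. Beside 4.2% of all named genes, limma called 1 of 12 tested lymphocyte and leukocyte markers among the 5 kidneys, S100a8 of neutrophils, at 0.24, 0.46, -0.19 and 0.16 in W1 to W4 (adjusted p = 0.0242; not called without array 1 or 3 of W2). In S100a8, W2 lay farthest from W5 and W3 alone lay on the opposite side of it, with W1 between. For W1 against the mean of the others 0 of these 12 were called, with 3 at an unadjusted p under 0.05 beside 602 of 8005 named genes, and their distances ran from -0.17 to 0.26. Of 17 germ cell markers listed 9 were tested, and of 10 red blood cell precursor markers 3. Limma called 0 of these in any test, and 0 passed an unadjusted p under 0.05. Of all 8005 named genes 1460, 914, 602 and 638 passed that level in the 4 tests, in the order given above. With so few genes tested, 0 calls is near the share called of all named genes and is no result about these markers. The widest ranges there were 0.36 for Prm2, a sperm protamine, and 0.27 for Klf1, an erythroid transcription factor. These ratios give differences between kidneys and no amount of any cell type, and the part of other cells in the Pttg1 values was not tested.

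Of 11 kidney markers limma called 3 among the 5 kidneys, beside 4.2% of all named genes. For W1 against the mean of the others it called 0, also with 0 at an unadjusted p under 0.05, beside 602 of 8005. Podxl, podocalyxin of glomerular podocytes, lay at -0.40, -0.68, -0.04 and -0.47 in W1 to W4 (limma adjusted p = 3.86e-05). It was also the kidney marker called for W1 against W5 (limma adjusted p = 0.0253). Aqp2, the vasopressin-regulated water channel of the collecting duct, lay at 0.36, -0.05, 0.13 and 0.54 in W1 to W4 (limma adjusted p = 0.00879). Aqp1, the water channel of the proximal tubule and thin limb, lay at 0.29, -0.17, 0.22 and 0.30 (limma adjusted p = 0.0153). W2 was apart from the other kidneys in Aqp1, and W4 was in Aqp2. Without the dye term neither water channel was called, with limma adjusted p values of 0.149 for Aqp1 and 0.0633 for Aqp2.

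Pttg1 lies on chromosome 11, and its neighbours there had smaller ranges, as did all named genes but Serpina1e. Taking the gene order of assembly GRCm38.p6, with 5 protein-coding genes between Pttg1 and the nearest measured gene on each side, the 10 nearest measured genes on each side had ranges from 0.081 to 0.57, with a median of 0.30. Limma called 4 of these 20 among the 5 kidneys, beside 27 of the 721 measured genes of the chromosome, and 0 among W1 to W4 or for W1 against the mean of the others. At an unadjusted p under 0.05, 5 and 7 of the 20 passed those 2 tests, beside 76 and 56 of the 721 genes of the chromosome and 914 and 602 of all 8005 named genes, so the share among the neighbours was the higher one at that level. W1 lay on the Pttg1 side of that mean in 9 of the 20. For W1 against W5 limma called 1 of the 20, Mat2b, beside 6 of the 721 and 75 of all 8005 named genes. The count of 4 among the 5 kidneys was 1 without array 2 of W3 and 2 without array 1 of W3 or without array 1 or 3 of W1, so it rests on single arrays.

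**Figure D3:**
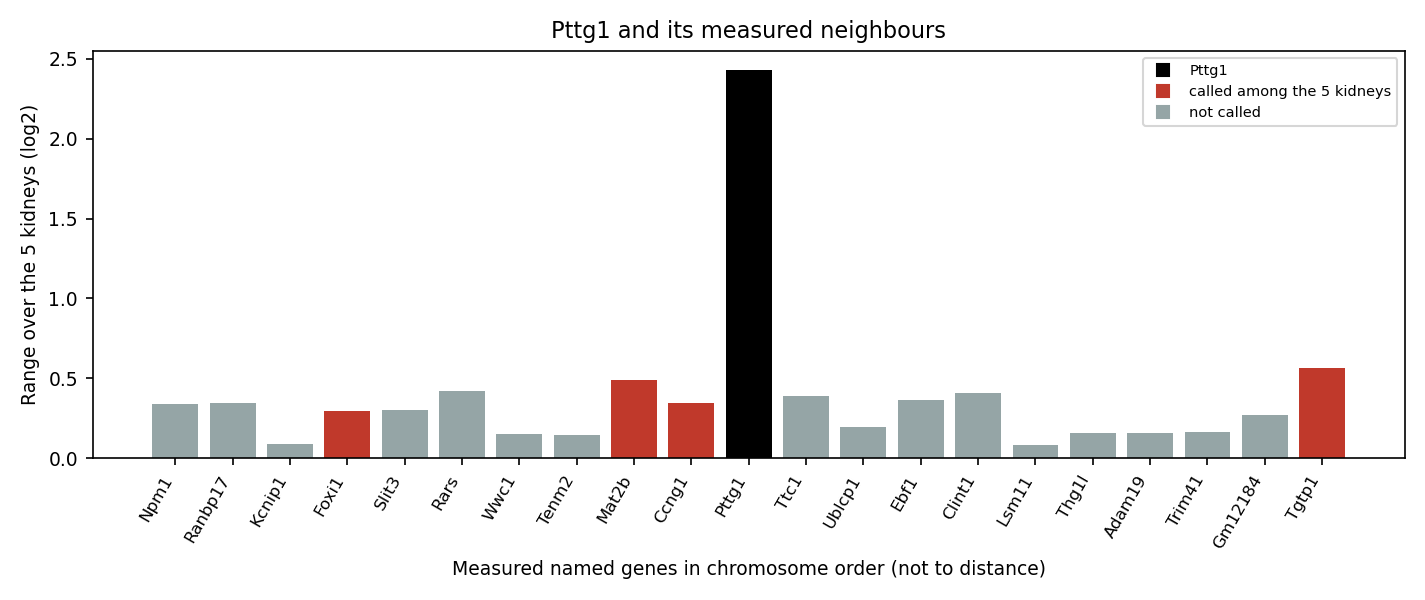
Range over the 5 kidneys (log2) of Pttg1 and the 10 nearest measured genes on each side in gene order on chromosome 11. Each bar is a gene. Pttg1 spans 2.43, while no neighbour spans more than 0.57.

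The nearest measured gene on the lower side, Ccng1, encodes cyclin G1, a target of p53. Its 4 arrays gave -0.39, -0.23, -0.31 and -0.10 in W1 and 0.00, 0.04, -0.06 and -0.04 in W2. W3 gave -0.38, -0.32, -0.23 and -0.45, and W4 gave -0.02, 0.01, -0.04 and -0.38. W1 and W3 were thus on the side of W5 opposite to Pttg1, with a range of 0.34 (limma adjusted p = 0.0225), a call lost without array 1 or 3 of W1 or array 1, 2 or 4 of W3. The other 2 probes of Ccng1 were not called (limma adjusted p = 0.174 and 0.279) and had W1 farthest from W5, at -0.39 and -0.23, with W3 at -0.16 and -0.12. Mat2b, which encodes a regulatory subunit of methionine adenosyltransferase, lay at -0.37, -0.36, 0.12 and -0.06 in W1 to W4 (limma adjusted p = 0.00988). It was also called for W1 against W5 (limma adjusted p = 0.0399), on the side opposite to Pttg1. Foxi1, a transcription factor of intercalated cells of the collecting duct, lay at 0.05, 0.27, 0.29 and 0.27 in W1 to W4 (limma adjusted p = 0.0183; not called without array 2 of W3). Tgtp1, an interferon-induced GTPase, had the widest range of the neighbours, 0.57, with 0.35, -0.21, 0.28 and -0.13 in W1 to W4 (limma adjusted p = 0.0442), and 17 of 27 alternatives lost its call. Tenm2, an adhesion protein, on the lower side (limma adjusted p = 0.700), and Ttc1 (0.0767), the phosphatase gene Ublcp1 (0.686) and the transcription factor gene Ebf1 (0.484), on the higher side, were not called.

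Genes with an arrangement like that of Pttg1 were sought by the cosine between the values of the 5 kidneys, centred on their mean. This likeness rests on 5 values that share W5 and the same arrays, so it is a description. Over the 335 other named genes called among the 5 kidneys its median was -0.0763, with 3 genes above 0.9 and 5 below -0.9. The most alike were Cryab, a small heat shock protein of the lens crystallin family (0.946), Pigr, the receptor that carries polymeric immunoglobulins across epithelia (0.946), and Atox1, a copper chaperone (0.932).

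**Figure D4:**
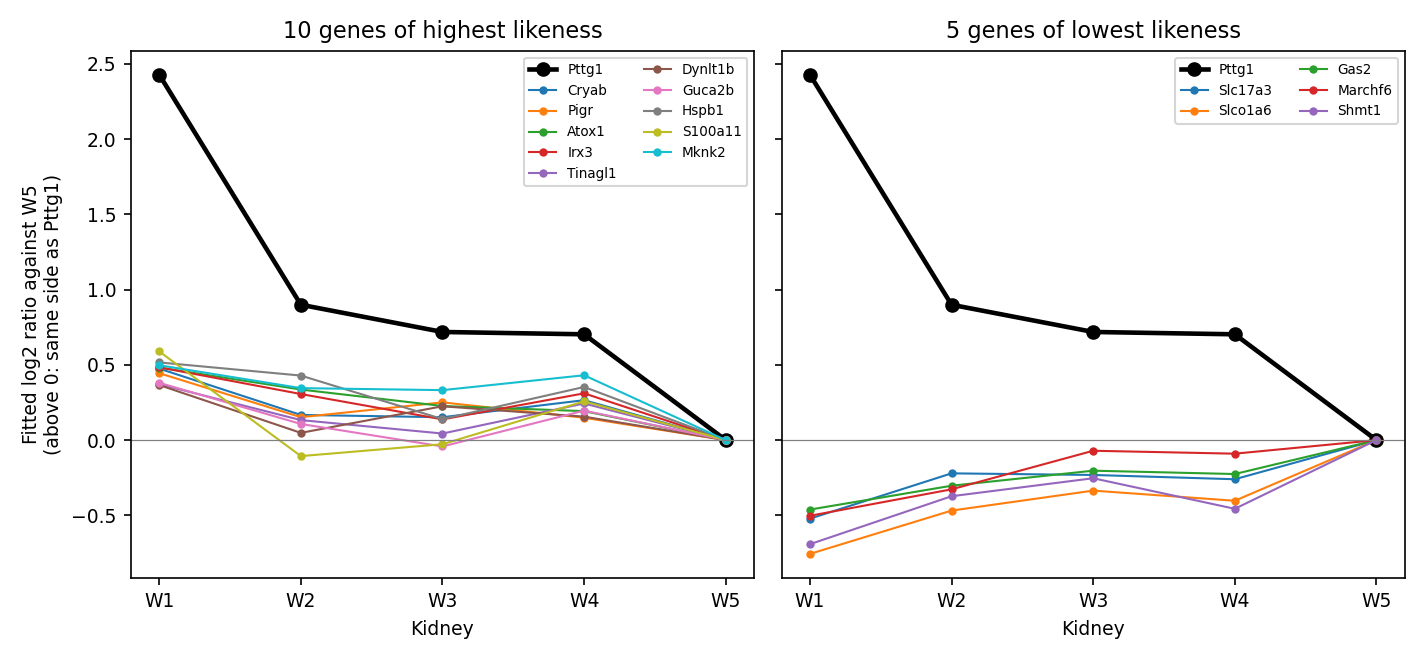
Fitted log2 ratios against W5 on the Pttg1 side in W1, W2, W3, W4 and W5 (at 0) for Pttg1, the 10 called genes most like it and the 5 least like it. Pttg1 reaches 2.43 in W1, and the gene with the widest range among the others, Slco1a6, reaches -0.76.

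Cryab gave 0.47, 0.68 and 0.32 on its measured arrays of W1. Its W2 arrays gave 0.30, 0.25 and -0.09, the W3 arrays 0.30, 0.11, 0.05 and 0.15 and the W4 arrays 0.32, 0.18, 0.14 and 0.42. Its arrays in W1 overlapped those of W4, and its fitted range was 0.47 (limma adjusted p = 0.0170; not called without array 3 of W1). Pigr gave 0.27, 0.67, 0.21 and 0.63 in W1, with fitted values of 0.44, 0.15, 0.25 and 0.15 in W1 to W4 (limma adjusted p = 0.0231), a call lost without any 1 of the W1 arrays, array 2 of W3 or the dye term. Atox1 gave 0.43, 0.47, 0.56 and 0.47 in W1 and 0.30, 0.42, 0.51 and 0.12 in W2, which overlap (limma adjusted p = 0.000563). Its fitted values were 0.48, 0.34, 0.23 and 0.19 in W1 to W4, and it lies on chromosome 11 like Pttg1. The range of Pttg1 was several times that of each of these genes.

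The next in likeness were Irx3, an Iroquois homeobox factor (0.894), Tinagl1, a matrix protein (0.872), Dynlt1b, a dynein light chain (0.860), Guca2b, uroguanylin, which promotes salt excretion (0.857), Hspb1, a small heat shock protein (0.817), S100a11, a calcium-binding protein (0.804), and Mknk2, a kinase of the translation factor eIF4E (0.779). Their ranges ran from 0.37 for Dynlt1b to 0.70 for S100a11, and a second Dynlt1b probe, at 0.08, 0.25, 0.02 and 0.14 in W1 to W4, had another order. The call of Dynlt1b was lost without array 1, 3 or 4 of W1 or array 1 or 2 of W3, that of Guca2b without array 1 or 3 of W1 or the dye term, that of Irx3 without the dye term, and that of Tinagl1 without array 4 of W1. Of the 10 most alike, S100a11 was called both among W1 to W4 (limma adjusted p = 0.00763) and for W1 against the mean of the others (limma adjusted p = 0.0119). Its arrays gave 0.47, 0.68, 0.35 and 0.86 in W1. Its W2 arrays gave -0.08, 0.05, -0.25 and -0.14, the W3 arrays 0.08, -0.04, -0.20 and 0.06 and the W4 arrays -0.03, 0.46, 0.17 and 0.43. W1 and W4 overlapped in S100a11, which they did not in Pttg1.

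The genes of opposite arrangement included 2 carriers of organic anions. Slc17a3, found in the proximal tubule, had the lowest likeness (-0.968), with -0.55, -0.40, -0.55 and -0.58 on the arrays of W1, a fitted value of -0.52 (limma adjusted p = 0.00309). Its W2 arrays gave -0.26, -0.18, -0.13 and -0.31, the W3 arrays -0.62, -0.21, 0.03 and -0.12 and the W4 arrays -0.11, -0.38, -0.16 and -0.39, so that only array 1 of W3 reached into the range of W1. Slco1a6, an organic anion transporter of the kidney (-0.943), lay at -0.76, -0.47, -0.34 and -0.40 in W1 to W4 (limma adjusted p = 2.3e-05). Gas2, an actin-associated protein of growth-arrested cells (-0.941), Marchf6, a ubiquitin ligase of the endoplasmic reticulum (-0.915), and Shmt1, the cytosolic serine hydroxymethyltransferase of folate metabolism (-0.911), followed. A second Marchf6 probe, at -0.05, -0.19, -0.01 and -0.03 in W1 to W4, had a much smaller range, and the Marchf6 call was lost without the dye term. Shmt1 lies on chromosome 11, as did 27 of the 335 called genes.

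Other genes that set W1 apart from W2, W3 and W4 were few, and most did not share the rest of the Pttg1 arrangement. Beside Pttg1, limma called 17 named genes in this contrast, out of 601 at an unadjusted p under 0.05. With Pttg1 counted, 9 lay on the Pttg1 side of the mean of the others and 9 on the opposite side. The median size was 0.569, against 1.65 for Pttg1. Over all probes the count of 26 was 4 without array 3 or without array 4 of W1 and 9 without array 1 of W1. Of the 10 named next, Azgp1 kept its call under all 27 alternatives, while each of the others lost it without at least 2 of the single arrays of W1.

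The largest after Pttg1 was Aldh1a7, an aldehyde dehydrogenase, at 1.13 ± 0.16 (SE; limma adjusted p = 0.00649). Its arrays gave 0.98, 1.09, 1.50 and 1.42 in W1 and 0.91, 1.13, 1.77 and 0.50 in W2, against -0.33, -0.63, -0.07 and -0.89 in W3 and -0.12, -0.39 and -0.41 in W4. W1 and W2 overlapped in Aldh1a7, and W3 and W4 lay on the other side of W5. Azgp1, a zinc-binding plasma glycoprotein, differed by 0.90 (limma adjusted p = 1.32e-05). It gave 0.29, 0.68, 0.40 and 0.64 in W1. The W2 arrays gave -0.97, -0.72, -1.14 and -0.76, the W3 arrays -0.05, 0.07, -0.01 and 0.10 and the W4 arrays -0.58, -0.21, -0.27 and -0.18. W1 stood apart from each other mouse in Azgp1, yet W2 was farther from W5 than W1 was.

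Ighg2c differed by 1.07 (limma adjusted p = 0.0176), with W1 near W5 at 0.10 and W2 at -2.05. Cish, a STAT5-induced inhibitor of cytokine signalling, differed by 0.67 (limma adjusted p = 0.0149) and gave 0.41, 0.63, 0.13 and 0.84 in W1, against 0.06, -0.07, 0.13 and 0.18 in W2. Col27a1, a fibrillar collagen, differed by -0.64 (limma adjusted p = 0.00643), with -1.0, -0.48, -0.93 and -0.76 in W1 and every array of W2, W3 and W4 nearer to W5. In Col27a1, W1 stood apart on the side opposite to Pttg1, with W2 at 0.05, W3 at -0.17 and W4 at -0.36.

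The remaining genes of the largest 10 were 1810037I17Rik at -0.66 (limma adjusted p = 0.00934), Serpina1e at 0.66 (0.00932), Ccn2 at 0.58 (0.0149), Nup155, a nuclear pore protein, at -0.56 (0.0105) and S100a11 at 0.55 (0.0119). In 1810037I17Rik W3 was apart from W1, W2 and W4 and near W5, at 0.14, with -1.72 for W1, -1.51 for W2 and -1.81 for W4. Nup155 lay at -0.89, -0.68, -0.51 and 0.19 in W1 to W4, with W4 alone on the Pttg1 side, as in Cdca8. Scaling arrays to a common median absolute deviation brought the W1 difference of Serpina1e to 0.27 and ended its call (limma adjusted p = 0.695). Each of the largest 10 but Azgp1 lost its call when 1 of W2, W3 or W4 was left out whole. In 3 of them the difference also moved far. Without W3 that of 1810037I17Rik was -0.05 (-1.03 without W4, with the call kept), without W2 that of Ighg2c was 0.53, and without W4 that of Nup155 was -0.29. The calls of Cish, Nup155 and S100a11 were lost without the dye term.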

How the data were processed

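Total RNA of right kidneys was compared on two-colour cDNA arrays, scanned with a GenePix 4000A and quantified in GenePix Pro 3.0, according to the labels. What the authors deposited is a log2 ratio per probe and array; per the labels they subtracted the background from mean intensities and then normalised so that the median ratio was 1. The base of the logarithm was read off the data: 1.55% to 4.90% of an array's values, less the offset of that array, matched log2 of small whole-number ratios (terms up to 12, tolerance 2e-06). At most 0.0342% matched for natural logs and 0.123% for log10. The sources used here give neither dyes nor numerator, nor why some cells are empty. Arrays had 16209 to 18406 values, and their number limits the precision.

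The sign was turned on arrays with W5 in channel 1, and once more for all probes so that Pttg1 is positive in W1. Probes measured on at least 3 of 4 arrays of every mouse, 15715 in all, were fitted with limma 3.58.1 in R 4.3.3 (lmFit and eBayes, 4 mouse coefficients and a dye term). All tests were two-sided, adjusted by Benjamini-Hochberg over all probes and called at an adjusted p under 0.05. Over all probes these called 629 (4%) among the 5 kidneys, 110 (0.7%) among W1 to W4, 26 (0.165%) for W1 against the mean of the others and 125 (0.795%) for W1 against W5. The fit was tested on simulated data.

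Of the probes, 11723 had 1 gene symbol in the platform annotation, 806 had several and 7676 are unnamed here. A gene with several probes is given by that measured on most arrays, then by the first identifier. Gene order came from a RefSeq table of assembly GRCm38.p6. The members and lists were chosen with earlier results of these data known. Genes named are the securin partners, called list members or else that with the widest range, called or nearest neighbours, the 10 most and 5 least like Pttg1, the 10 largest in W1 against the others, and those next to Pttg1 by range. Mki67, Top2a, Cdk1 and Birc5 were added after values were seen. Eef1a2, next by range, had a range of 2.04 with an SE of up to 0.59 on 14 arrays and was not called (limma adjusted p = 0.361). No sequence of the Pttg1 probe or protein was used here.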

Additional observations from a re-analysis of the deposited data

Results flagged for a closer look

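In Pttg1 no single array stood apart from the other 3 of its mouse. Among the 200 sets of 4 arrays of the named genes, 14 had an array apart by Dixon's test, and chance gives about 1 in 20. Array 4 of W4 stood apart in Aqp1 (0.67), Ccng1 (-0.38) and Foxi1 (0.44). Array 2 of W3 did in Atox1 (0.37) and Pigr (0.47), array 3 of W3 in Id3 (0.23), and array 4 of W3 in Mad2l1bp (-0.43) and Prm2 (-0.52). Array 3 of W2 did in Pttg1ip (-0.46), Smc1a (-0.59) and Ttc1 (0.20), array 2 of W2 in Dynlt1b (0.119) and array 4 of W2 in Tinagl1 (-0.14). Array 2 of W1 did in Tgtp1 (0.0809).

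Differences from W5 themselves differed among W1 to W4 by limma's test of those differences in 11 of the named genes other than Pttg1. The adjusted p was 4.11e-07 for 1810037I17Rik, 2.52e-06 for Azgp1, 0.000188 for Aldh1a7, 0.000188 for Nup155 and 0.000208 for Ighg2c. It was 0.00178 for Serpina1e, 0.00184 for Ccn2, 0.00214 for Col27a1, 0.00763 for S100a11, 0.00799 for Cish and 0.0347 for Serpina1b. No explanation of these was tested.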

How the results depend on the processing

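Pttg1 lay on the same side of W5 in every mouse under all alternatives tried, with W1 outermost wherever W1 was kept. Scaling arrays to a common median absolute deviation moved its W1 value to 2.80 and its distance from the mean of W2, W3 and W4 to 2.05. With 1 array left out, W1 lay between 2.34 and 2.55 and that distance between 1.57 and 1.77, with W2 between 0.83 and 0.99, W3 between 0.68 and 0.76 and W4 between 0.62 and 0.82. Without the dye term the probes called were 403 among the 5 kidneys, 62 among W1 to W4 and 15 for W1 against the mean of the others. With limma's array weights they were 240 among W1 to W4, 55 for W1 against the mean and 314 for W1 against W5. Common scaling gave 237 for W1 against W5. With 1 probe per named gene the 5-kidney count was 383 and that for W1 against W5 was 80, by construction from fewer probes. Without mouse W1 or W2 the 5-kidney count was 378 or 335, and without W1, W2, W3 or W4 that among the remaining of these mice was 54, 53, 49 or 70, from fewer samples. Leaving out 1 array gave 457 to 671 among the 5 kidneys, 72 to 125 among W1 to W4, 4 to 33 for W1 against the mean and 54 to 139 for W1 against W5. Of cell division genes 2 were called with probes measured on all 16 arrays, a setting that left out Cdca8 and Cdkn1a, each measured on 15. There were 2 called without mouse W3, and 3 to 6 with 1 array left out. Of neighbours 1 was called without mouse W1, 1 without W2, 1 without W3, and 1 to 5 with 1 array left out. Other causes were not tested.

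Whether array numbers pair arrays across mice is not settled. Residuals of same-numbered arrays correlated between -0.253 and 0.135, those of other arrays of different mice between -0.284 and 0.280. The fit had already removed mouse means and the dye term, so these ranges cannot exclude pairing. In Pttg1 the residual was positive on array 2 and negative on array 4 of every mouse, with both signs on arrays 1 and 3. With the replicate number as a block in place of the dye term, Pttg1 in W1 stayed at 2.43 and the 5-kidney count was 590, with 551 probes shared with the 629. Of the 10 genes most like Pttg1, 9 were shared with an uncentred cosine. No value turned its direction.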
